A study of Mus musculus with 6 samples.

Results

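The 9 genes described here encode enzymes that insert double bonds into long fatty acids or lengthen them, with the polyunsaturated branch of fatty acid synthesis at their centre: the desaturase genes Fads1, Fads2, Fads3, Fads6 and Scd2 and the elongase genes Elovl1, Elovl2, Elovl5 and Elovl7. They were taken by symbol from a table of 17460 genes measured by RNA sequencing of mouse liver, and all 9 were listed and passed the filter on low values. The livers came from C57BL/6 mice aged 9 months that had been kept for 24 weeks on a NASH diet, a diet used to provoke non-alcoholic steatohepatitis. There were 3 control livers and 3 livers with liver-specific knockout of the long noncoding RNA Blnc1 (Blnc1 LKO). The knockout was made in Cas9 transgenic mice with an adenovirus that carries 2 guide RNAs against Blnc1, a route that reaches hepatocytes far better than the other cells of the liver. A GFP adenovirus is named for the controls of a high-fat-diet cohort, and the control vector of the NASH cohort is not given in the sources used here. The labels do not say whether each liver is from a separate mouse, so the p-values measure the spread between these samples, which may in part be technical.

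The livers had between 65384969 and 89350181 reads on the listed genes, and the 9 genes were deeply covered, from 305 reads for Elovl7 in its shallowest library to 105810 for Elovl5 in its deepest. The table lists no gene named Blnc1, so the knockout was not checked in these libraries. Values are reads divided by each library's size factor (normalized values). Differences are log2 fold changes, Blnc1 LKO minus control, on the log2(value + 1) scale, tested with limma across 17297 genes, with Benjamini-Hochberg adjusted p-values and a threshold of 0.05.

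Mammals cannot make linoleic acid and alpha-linolenic acid and take them from the diet. In the liver, the desaturases encoded by Fads2 and Fads1 and the elongases encoded by Elovl5 and Elovl2 act in turn on these precursors in the endoplasmic reticulum and give arachidonic acid, eicosapentaenoic acid and docosahexaenoic acid, which are built into membrane phospholipids or serve as precursors of signalling lipids. The transcription factors SREBP-1c, PPARα and LXRα, encoded by Srebf1, Ppara and Nr1h3, are known regulators of several of these genes in the liver.

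No gene of the 9 passed the adjusted threshold, with adjusted p-values from 0.840 to 1.00 (limma). Of all genes tested, 1 passed it, which is 0.00578%. The mean of the Blnc1 LKO livers was below that of the controls for 8 of the 9 genes, and the median log2 fold change was −0.17, against −0.00099 for all genes tested. At an unadjusted p under 0.05, 3 of the 9 were lower in Blnc1 LKO livers, Fads1, Fads2 and Elovl7, and 0 were higher. Over all genes tested, 2.74% were lower and 2.94% higher at that threshold. Every Blnc1 LKO liver was below every control liver for 4 of the 9, these same 3 genes and Elovl5, and over all genes tested that was so for 5.28%. edgeR's quasi-likelihood test called 0 of the 9 and 0.0116% of all genes, and DESeq2 called 0 of the 9 and 0.486% of all genes, with 0.311 as the smallest adjusted p among the 9. The same 3 genes had an unadjusted p under 0.05 in each of these tools. That was so for 5.6% of all genes with edgeR and 4.89% with DESeq2.

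**Figure D1:**
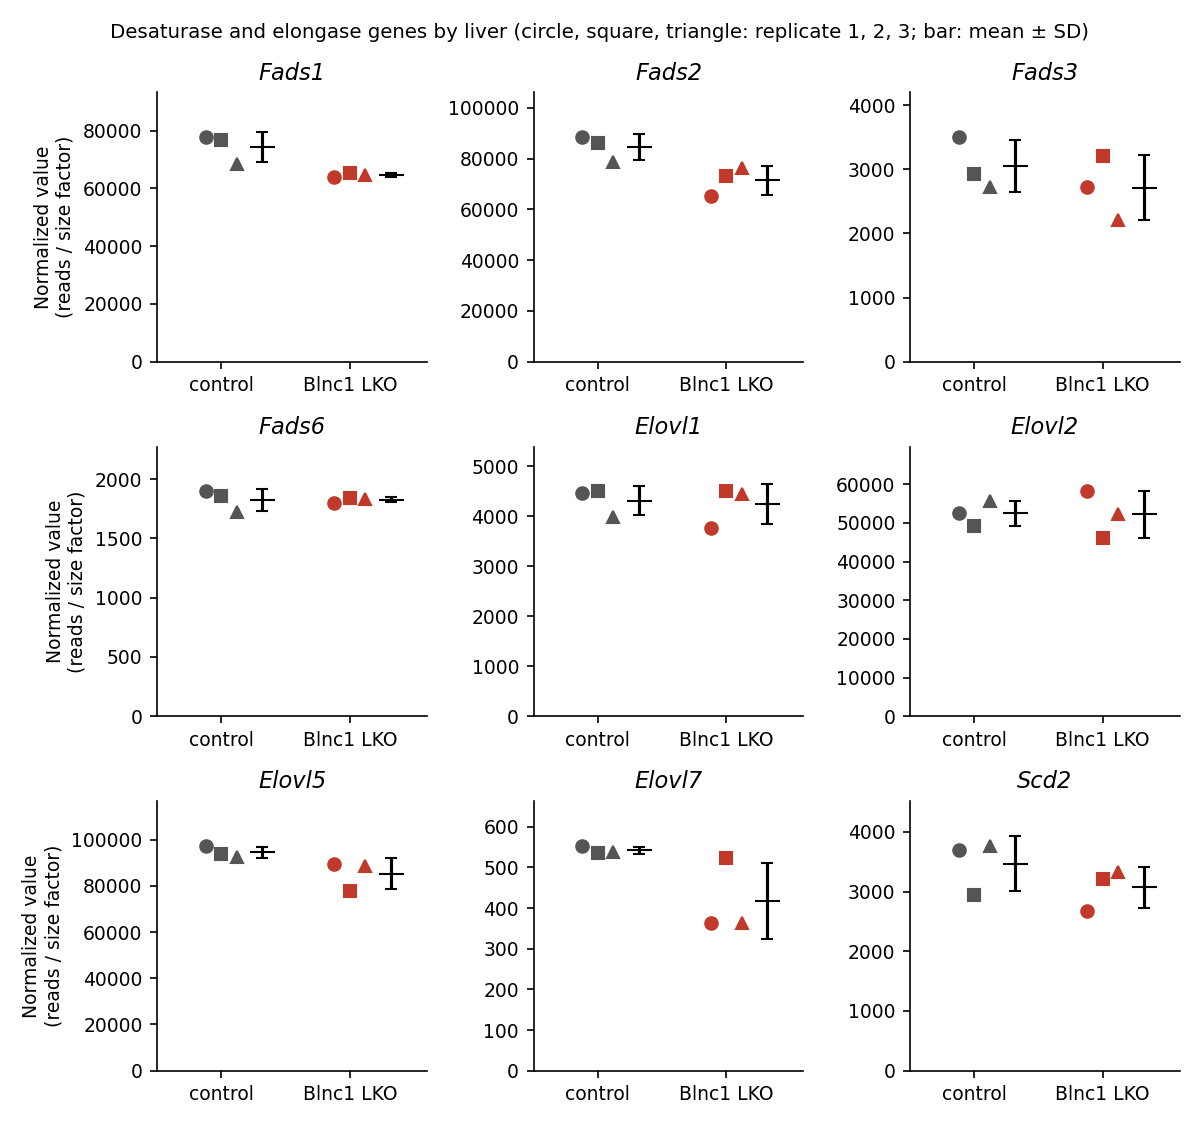
Normalized value (reads divided by the size factor, vertical axis from 0) of each of the 9 genes in the 3 control livers (grey) and the 3 Blnc1 LKO livers (red), with circles, squares and triangles for replicates 1, 2 and 3 and bars for the mean ± SD. The groups do not overlap for Fads1, Fads2, Elovl5 and Elovl7, and Blnc1 LKO replicate 2 sits close to the controls for Elovl7.

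The levels of the 9 genes, compared per kilobase of exon, spanned from 26837 ± 713 (SD, n = 3) for Elovl5 to 135 ± 2.38 (n = 3) for Elovl7 in control livers. Fads2 followed Elovl5 at 25647 ± 1550 per kilobase, and the livers of these 2 genes overlapped in both groups. Fads1 stood at 15435 ± 1070 per kilobase and Elovl2 at 13242 ± 813. Their ranges were apart in control livers, where Fads1 was 1.17 times Elovl2, and overlapped in Blnc1 LKO livers, where the ratio was 1.02. The 4 genes of the pathway from the essential fatty acids to their long products were therefore the 4 highest of the 9, and Elovl2 stood 8.37 times above the next gene, Elovl1, in control livers. Elovl1 was at 1583 ± 104 per kilobase, Fads3 at 805 ± 106, Scd2 at 635 ± 83.9 and Fads6 at 274 ± 13.9. Of these lower neighbours, only Fads3 and Scd2 overlapped, and only in Blnc1 LKO livers. For comparison, Scd1, the main hepatic stearoyl-CoA desaturase, stood at 578583 ± 7360 per kilobase in control livers. These levels assume that reads fall on all annotated exons alike.

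**Figure D2:**
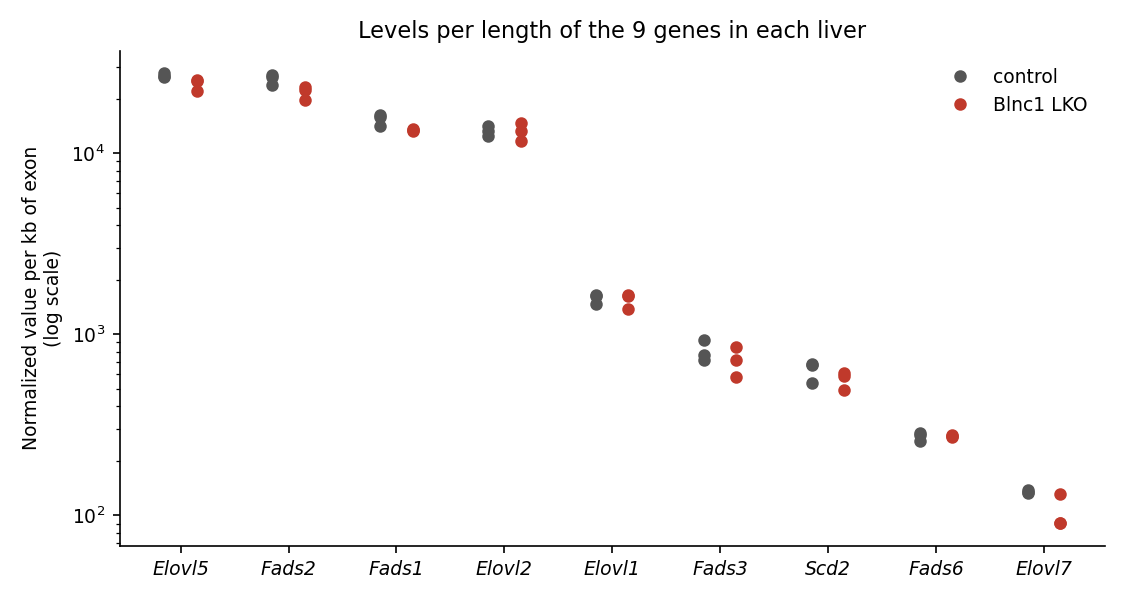
Normalized value per kilobase of exon (log axis) of the 9 genes in each control liver (grey) and Blnc1 LKO liver (red). Elovl5, Fads2, Fads1 and Elovl2 lie above 11640 per kilobase in every liver, and the next of the 9, Elovl1, reaches 1650.

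Fads2 encodes the desaturase that acts first on both essential fatty acids. On chromosome 19 it lies at 10062765 to 10101746 on the − strand (GENCODE, GRCm38). Its normalized values were 88488, 86284 and 78749 in control replicates 1, 2 and 3, and 65068, 73106 and 76087 in Blnc1 LKO replicates 1, 2 and 3. The highest Blnc1 LKO liver was below the lowest control liver. The mean was 84507 ± 5107 (SD, n = 3) in control and 71420 ± 5699 (n = 3) in Blnc1 LKO livers, at a ratio of 0.845 and a log2 fold change of −0.24 (SE 0.088, 95% interval −0.44 to −0.044). The unadjusted limma p was 0.0225 and the adjusted p 0.840. Without Blnc1 LKO replicate 1 the log2 fold change was −0.18 and the unadjusted limma p 0.0540.

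Fads1 encodes the later desaturase of the pathway, the one that yields arachidonic acid. It lies at 10182888 to 10196877 of chromosome 19 on the + strand, and its start is 81142 bases from that of Fads2, with the genes pointing away from each other. The normalized values were 77804, 76652 and 68366 in the control livers and 63789, 65270 and 64477 in the Blnc1 LKO livers. The Blnc1 LKO livers lay within a narrow band below all controls, with a coefficient of variation of 1.15% against 6.93% in the controls. The mean was 74274 ± 5149 (n = 3) in control and 64512 ± 741 (n = 3) in Blnc1 LKO livers, at a ratio of 0.869 and a log2 fold change of −0.20 (SE 0.076, 95% interval −0.37 to −0.028). The unadjusted limma p was 0.0275 and the adjusted p 0.840. Without control replicate 1 or control replicate 2, neither Fads1 nor Fads2 had an unadjusted limma p under 0.05, and for Fads1 the same held without Blnc1 LKO replicate 3.

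Fads3, a desaturase gene of the same cluster whose product acts on sphingoid bases, lies at 10041569 to 10060110 on the + strand, and its end is 2655 bases from that of Fads2. Its normalized values were 3505, 2921 and 2730 in control and 2725, 3213 and 2209 in Blnc1 LKO livers. The groups overlapped, and Blnc1 LKO replicate 2 was above 2 of the 3 controls. The log2 fold change was −0.18 (SE 0.14, 95% interval −0.49 to 0.14, limma adjusted p = 0.971). It ran from −0.31 without Blnc1 LKO replicate 2 to −0.036 without Blnc1 LKO replicate 3, and was −0.073 without control replicate 1. Fads6, a desaturase-like gene on chromosome 11 (115279622 to 115297663, − strand), differed least. Its normalized values were 1895, 1854 and 1718 in control and 1802, 1844 and 1828 in Blnc1 LKO livers, the latter inside the range of the controls. The log2 fold change was 0.0030 (95% interval −0.13 to 0.14, limma adjusted p = 1.00).

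Elovl5 encodes the elongase that lengthens the products of the first desaturation. It lies at 77917364 to 77984519 of chromosome 9 on the + strand. The normalized values were 97276, 93925 and 92359 in control and 89656, 77558 and 88405 in Blnc1 LKO livers. All 3 Blnc1 LKO livers were below the controls, with replicate 2 the lowest. The mean was 94520 ± 2512 (n = 3) against 85206 ± 6654 (n = 3), with a log2 fold change of −0.15 (SE 0.084, 95% interval −0.34 to 0.039, limma adjusted p = 0.929). The unadjusted p was 0.104 (limma). Without Blnc1 LKO replicate 2 the log2 fold change was −0.086.

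Elovl2, on chromosome 13 (41182381 to 41220405, − strand), encodes the elongase that acts late in the pathway and is needed for docosahexaenoic acid. The normalized values were 52584, 49264 and 55709 in control and 58162, 46165 and 52320 in Blnc1 LKO livers. The groups overlapped fully, and the Blnc1 LKO livers held both the highest and the lowest value. The mean was 52519 ± 3223 (n = 3) in control and 52216 ± 5999 (n = 3) in Blnc1 LKO livers, and the log2 fold change was −0.013 (SE 0.095, 95% interval −0.23 to 0.20, limma adjusted p = 0.999). With 3 livers a group, differences of up to about these bounds in either direction remain compatible with the data. The bounds are not a limit of detection.

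The sequences before the start of 3 of these genes are shown because Fads2, Elovl5 and Elovl2 stand for different steps of the pathway and were among the 4 highest of the 9. Each is the 250 bases before a RefSeq transcript start (GRCm38.p6), 5′ to 3′ on the strand of the gene. Capitals mark 3 motifs, each searched on both strands. The CCAAT box appears in these windows in its reverse form, printed as ATTGG in the sequence. The others are the GC box GGGCGG and the E-box with the letters CACGTG, which reads alike on either strand. No marked motifs overlap in these 3 windows. The RefSeq start used for Fads2 lies inside the gene as GENCODE gives it, so most of this window is downstream of the GENCODE start at 10101746.
Fads2, chr19:10101504-10101753, − strand: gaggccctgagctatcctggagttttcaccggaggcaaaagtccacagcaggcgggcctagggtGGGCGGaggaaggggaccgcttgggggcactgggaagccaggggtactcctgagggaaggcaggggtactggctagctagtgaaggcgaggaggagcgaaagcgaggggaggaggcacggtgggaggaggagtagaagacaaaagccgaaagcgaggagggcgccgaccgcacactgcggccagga
Elovl5, chr9:77917115-77917364, + strand: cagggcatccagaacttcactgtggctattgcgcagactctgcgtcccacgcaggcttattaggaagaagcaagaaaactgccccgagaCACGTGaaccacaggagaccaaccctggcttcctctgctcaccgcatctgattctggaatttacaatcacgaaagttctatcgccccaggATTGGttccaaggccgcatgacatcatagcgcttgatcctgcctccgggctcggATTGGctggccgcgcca
Elovl2, chr13:41220404-41220653, − strand: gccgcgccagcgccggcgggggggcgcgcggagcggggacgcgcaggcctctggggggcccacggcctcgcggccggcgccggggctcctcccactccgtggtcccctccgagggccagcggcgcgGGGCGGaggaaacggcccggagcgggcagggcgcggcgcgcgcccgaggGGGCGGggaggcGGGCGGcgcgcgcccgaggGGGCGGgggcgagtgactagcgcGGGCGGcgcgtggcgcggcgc

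The Elovl5 window holds the CCAAT box in reverse at 71 and 17 bases before the start and CACGTG at 161 bases before it, and no GGGCGG. The Elovl2 window printed holds GGGCGG 5 times between 124 and 21 bases before the start, and the Fads2 window holds it once, at 186 bases before the RefSeq start and inside the GENCODE gene. A further Elovl2 window in the table, chr13:41220163-41220412, before another RefSeq start, holds none of the 3 motifs. Of 32851 promoter windows of the same length, 33.8% hold CCAAT, 32.7% hold GGGCGG and 6.02% hold CACGTG on either strand. The bases G and C make up 87.2% of the printed Elovl2 window, 64.8% of the Fads2 window and 55.6% of the Elovl5 window, against a median of 52.4% over all windows. Of the 9 genes, 7 matched the promoter table, with 9 windows, and Fads1 and Scd2 were not matched. These are matches of letters only.

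Elovl7 encodes an elongase with a preference for saturated fatty acids and was the lowest of the 9 genes. It lies at 108214404 to 108285683 of chromosome 13 on the + strand. The normalized values were 553, 536 and 537 in control and 363, 524 and 363 in Blnc1 LKO livers. Blnc1 LKO replicates 1 and 3 were far below the controls, and replicate 2 was just below them. The mean was 542 ± 9.55 (n = 3) against 417 ± 93.0 (n = 3), with a log2 fold change of −0.40 (SE 0.14, 95% interval −0.73 to −0.072), the greatest in size of the 9. The unadjusted limma p was 0.0224 and the adjusted p 0.840. Without Blnc1 LKO replicate 2 the log2 fold change was −0.58 and the limma adjusted p 0.128. Without control replicate 1, Blnc1 LKO replicate 1 or Blnc1 LKO replicate 3, Elovl7 had an unadjusted limma p above 0.05.

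The summed markers of cholangiocytes, stellate cells and fibroblasts, and lymphocytes were highest among the Blnc1 LKO livers in the same liver, replicate 2, while those of endothelial cells were lowest there. The 6 cholangiocyte markers summed to 56865, 71586 and 47410 in Blnc1 LKO replicates 1, 2 and 3, and to between 59856 and 71742 in control livers. The 8 stellate cell and fibroblast markers summed to 66212, 77508 and 67169 in the Blnc1 LKO livers and to between 75713 and 78021 in the controls. The 6 lymphocyte markers summed to 1286, 1828 and 1142, against 1329 to 1811. Such sums are weighted to the most abundant markers. By gene, 5 of 6 cholangiocyte, 6 of 8 stellate cell and fibroblast and 6 of 6 lymphocyte markers were lower in Blnc1 LKO livers. At an unadjusted limma p under 0.05, 2 of the stellate cell and fibroblast markers were lower, and 0 of the other 2 lists. Over all genes tested, 2.74% were lower at that threshold. In the sums of these 3 lists, replicate 2 was within or just above the range of the controls, while replicates 1 and 3 were below it. Replicate 2 was likewise the highest of the Blnc1 LKO livers for Elovl7, Fads3, Fads1, Elovl1 and Fads6, by wide margins for the first 2 of these and narrowly for the others. For Elovl5 and Elovl2 replicate 2 was instead the lowest of the Blnc1 LKO livers, and for Fads2 and Scd2 it was the middle one. The part of these cells in the results was not tested. In whole liver, fewer cells of a type and less RNA per cell cannot be told apart.

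The 7 endothelial markers summed to 23412, 22736 and 23560 in Blnc1 LKO replicates 1, 2 and 3 and between 23566 and 24896 in controls. Their sum was thus also below all controls, though narrowly. By gene, 5 of the 7 were lower, 3 of them at an unadjusted limma p under 0.05. The part of endothelial cells in the results for Fads1, Fads2 and Elovl5 was not tested. The 8 macrophage markers summed to 63978, 66822 and 73172, against 60005 to 68058 in the controls. Of these 8, 5 were higher and 3 lower, with 3 higher and 1 lower at an unadjusted limma p under 0.05. Over all genes tested, 2.94% were higher and 2.74% lower at that threshold. The hepatocyte markers, of which 7 of 8 were listed, summed to 5202127 to 6331361 in Blnc1 LKO and 5334187 to 5944851 in control livers. No marker of any list passed the adjusted threshold (limma), and 0 of the listed markers were at 0 in any liver.

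Elovl1, which encodes an elongase of saturated and monounsaturated very-long-chain fatty acids, lies at 118428093 to 118432953 of chromosome 4 on the + strand. Its normalized values were 4458, 4498 and 3988 in control and 3775, 4498 and 4447 in Blnc1 LKO livers, with overlapping groups and a log2 fold change of −0.028 (SE 0.082, 95% interval −0.21 to 0.16, limma adjusted p = 0.993). Its exons overlap those of Cdc20 on the other strand, and with a library kit that does not mark strand the reads of the shared stretch cannot be assigned to either gene.

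Scd2 encodes a stearoyl-CoA desaturase that makes monounsaturated fatty acids and is most used outside the adult liver. It lies at 44293674 to 44306864 of chromosome 19 on the + strand, 87591 bases from Scd1. The normalized values were 3700, 2940 and 3764 in control and 2681, 3212 and 3319 in Blnc1 LKO livers. The groups overlapped through control replicate 2, and the log2 fold change was −0.17 (SE 0.11, 95% interval −0.43 to 0.084, limma adjusted p = 0.951). It was −0.29 without control replicate 2, −0.11 without control replicate 3 and −0.078 without Blnc1 LKO replicate 1. Of the 50-base stretches of Scd2 transcripts, 3.97% also occur in another gene, led by Scd1, whose level per kilobase was far higher, so the value of Scd2 is uncertain.

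**Figure D3:**
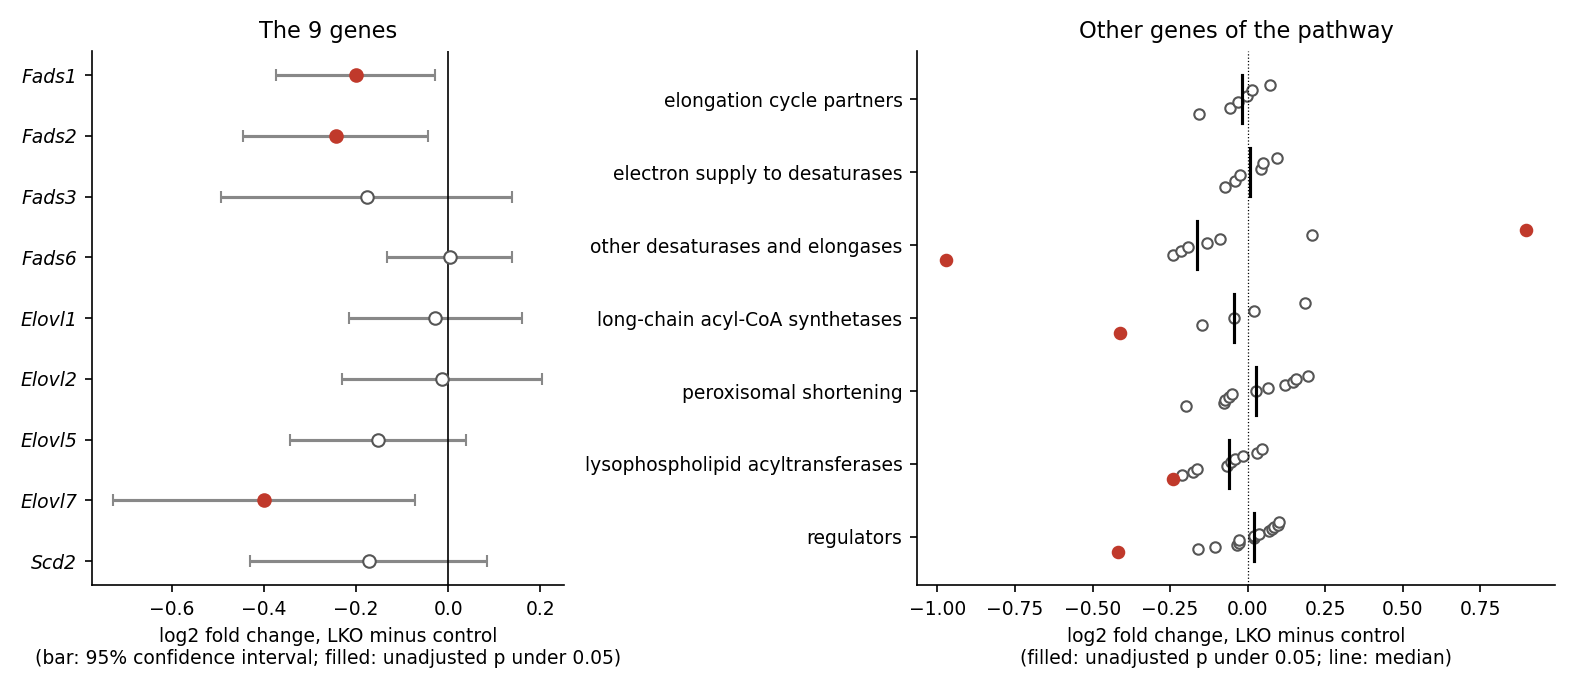
Log2 fold change, Blnc1 LKO minus control, of the 9 genes with 95% confidence intervals from limma (left) and of the 60 tested genes of the related lists, 1 row a list (right), with filled points for an unadjusted p under 0.05. Only the intervals of Fads1, Fads2 and Elovl7 lie wholly below 0, and the related lists scatter on both sides of it.

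The balance between steps of the pathway was compared as the ratio of normalized values within each liver, with 4 ratios in all. The log2 ratio of Fads2 to Fads1 was 0.187 ± 0.017 (SD, n = 3) in control and 0.144 ± 0.107 (n = 3) in Blnc1 LKO livers (two-sided exact permutation p = 0.7, adjusted p = 0.8). The log2 ratio of Elovl5 to Elovl2 was 0.887, 0.931 and 0.729 in control and 0.624, 0.748 and 0.757 in Blnc1 LKO livers, a difference of −0.14 (exact permutation p = 0.3, adjusted p = 0.8). It overlapped between groups through control replicate 3. The differences for Scd2 over Scd1 and for Elovl5 over Elovl6 were 0.067 and 0.041, with exact permutation p-values of 0.7 and 0.8 and adjusted p-values of 0.8. With 3 livers against 3 the smallest p this test allows is 0.1.

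The profile of each gene across the 6 livers was also compared with all 12487 genes with a mean of at least 100, by the root mean square (RMS) difference of log2 values centred on each gene's mean. Among the 9 genes the closest pair was Fads1 and Fads2, with an RMS difference of 0.066, and Fads2 ranked 93 of 12487 for Fads1. The next pairs were Fads6 and Elovl1 at 0.076 and Fads1 and Elovl5 at 0.090. Elovl1 ranked only 3574 of 12487 for Fads6, and Elovl5 ranked 620 for Fads1. Fads6 varied around its own mean by an RMS of only 0.044, so the small difference from Elovl1 does not show a shared profile. Elovl7 was most like Fads3, at 0.176, and least like Elovl2, at 0.333. Over all genes compared, the profiles nearest to Fads1 included those of Ung and Abi2 (RMS 0.018 and 0.029), and to Fads2 those of Cyyr1, Tfec and Iffo2 (0.033 to 0.040). Those nearest to Elovl5 were Aste1, Hnrnpll and Hif1a (0.020 to 0.034), and to Elovl2 Nr2f2, Sdhaf4 and Slc25a15 (0.012 to 0.020). For Fads3 they were Kif2c, Tmem260 and Ifi27l2a, for Fads6 Gng5, Map2k7 and Lsm2, for Elovl1 Plec, Abhd16a and Klc2, and for Scd2 I830077J02Rik, Gpr65 and Cenpe. These likenesses rest on 6 livers and are given as descriptions.

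**Figure D4:**
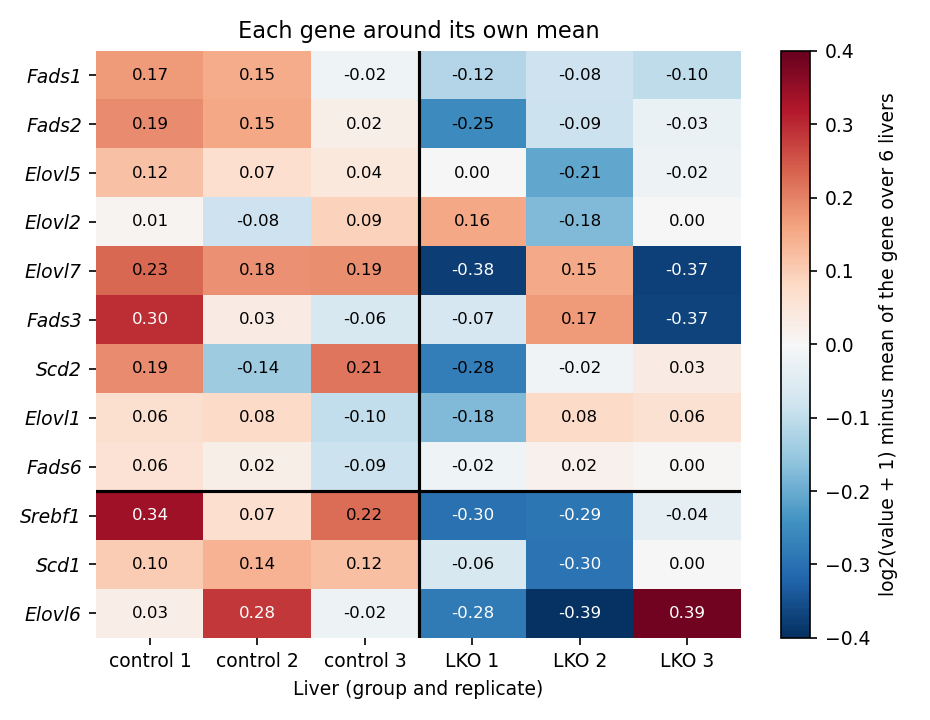
Log2 normalized value minus the gene's mean over the 6 livers (colour and printed number) for the 9 genes and for related genes of the fatty acid pathways, with 1 column a liver. Fads2 is above 0 in all 3 controls and below 0 in all 3 Blnc1 LKO livers, Fads1 is alike but for −0.017 in control replicate 3, and Elovl2 varies within both groups.

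Genes of 7 related lists, 61 genes of which 60 were listed and tested, gave 25 with a positive and 35 with a negative log2 fold change, a median log2 fold change of −0.030, and 1 higher and 4 lower at an unadjusted limma p under 0.05, against the 2.94% higher and 2.74% lower over all genes tested. None passed adjustment (smallest limma adjusted p = 0.548). Every Blnc1 LKO liver was below every control for 7 of the 60 and above every control for 1. Over all 17297 genes tested, that was so for 914 and 925.

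The other desaturase and elongase genes, 8 in all, gave 2 positive and 6 negative log2 fold changes with a median of −0.16. Elovl3, an elongase of saturated and monounsaturated very-long-chain fatty acids, had the largest difference upward of all the lists. Its values were 1544, 2047 and 1455 in control and 3901, 2026 and 3757 in Blnc1 LKO livers, which is a log2 fold change of 0.90 (SE 0.24, limma adjusted p = 0.648), and Blnc1 LKO replicate 2 was within the range of the controls. Scd3, a rare relative of Scd1 at 29.1 ± 4.30 in control and 15.6 ± 7.58 in Blnc1 LKO livers (n = 3 each), was below the controls in every Blnc1 LKO liver (log2 fold change −0.97, limma adjusted p = 0.851). Scd1 itself was at 2794184, 2866187 and 2830913 in control and 2491966, 2121470 and 2603267 in Blnc1 LKO livers, without overlap (log2 fold change −0.24, 95% interval −0.85 to 0.37, limma adjusted p = 0.973). The Scd1 means were 2830428 ± 36004 in control and 2405568 ± 252251 in Blnc1 LKO livers (n = 3 each). The limma interval draws on variances over all genes as well as on these livers, so its width is not their scatter alone. The tools differed for Scd1, with an unadjusted p under 0.05 in edgeR, DESeq2 and voom but not in limma. Its DESeq2 adjusted p was 0.424. Elovl6, which lengthens palmitate, gave 12045 ± 1410 against 10809 ± 3362 (n = 3 each, limma adjusted p = 0.973).

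The regulators gave 8 positive and 6 negative log2 fold changes of 14, with a median of 0.021. Srebf1, the gene of SREBP-1c, had the smallest p of the 60. Its values were 52837, 43792 and 48788 in control and 34010, 34234 and 40659 in Blnc1 LKO livers. Every Blnc1 LKO liver was below every control, with a log2 fold change of −0.42 (SE 0.097, 95% interval −0.64 to −0.20, limma adjusted p = 0.548, DESeq2 adjusted p = 0.0111). Insig1, which encodes a protein that holds SREBP precursors in the endoplasmic reticulum, had a log2 fold change of −0.16 (limma adjusted p = 0.879). Those of Ppara and Nr1h3 were 0.084 and 0.080 (limma adjusted p-values of 0.971 and 0.951). Nr1h3 was higher in every Blnc1 LKO liver (8846 to 9489) than in every control (8451 to 8772).

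The enzymes that complete each elongation cycle, of which 6 of 7 were listed, differed little, with a median of −0.017 and a range from −0.16 for Hacd4 to 0.072 for Hacd3. Hsd17b12, the cycle's ketoacyl-CoA reductase, was the highest of them, with a log2 fold change of 0.014 (limma adjusted p = 0.998). The 6 genes that carry electrons to the desaturases had a median of 0.0089. Among them Cyb5a, the microsomal cytochrome b5, was at 75497 ± 5582 in control and 80621 ± 6538 in Blnc1 LKO livers (n = 3 each, log2 fold change 0.094), and Cyb5r1 had a log2 fold change of −0.074. No gene of either list had an unadjusted limma p under 0.05.

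Of the 5 long-chain acyl-CoA synthetase genes, whose products activate fatty acids before elongation, Acsl3 was at 2739, 3362 and 3874 in control and 2621, 2630 and 2201 in Blnc1 LKO livers. All Blnc1 LKO livers were below the controls (log2 fold change −0.41, SE 0.12, limma adjusted p = 0.745). Acsl4, which favours arachidonic acid, had a log2 fold change of −0.15 (limma adjusted p = 0.891), and Acsl1, the highest of the 5, one of 0.19 (adjusted p = 0.971), which was 0.028 without Blnc1 LKO replicate 1 and 0.33 without Blnc1 LKO replicate 2. Of the 10 lysophospholipid acyltransferase genes, which place fatty acids into phospholipids, 2 had positive and 8 negative log2 fold changes (median −0.059). Among these Lpcat2 was at 1361 ± 101 against 1152 ± 96.3 (n = 3 each, log2 fold change −0.24, limma adjusted p = 0.824), Lpcat1 had a log2 fold change of −0.21 (adjusted p = 0.927) and Agpat3 one of 0.045 (adjusted p = 0.978).

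The 11 genes of peroxisomal shortening, which includes the last step to docosahexaenoic acid, were split into 6 positive and 5 negative log2 fold changes with a median of 0.026. The acyl-CoA oxidase genes Acox2 and Acox3 had log2 fold changes of 0.19 and 0.12 (limma adjusted p-values of 0.891 and 0.930), and their groups overlapped. None of the 11 had an unadjusted limma p under 0.05.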

How the data were processed

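RNA was taken from whole livers, and polyA-selected libraries were made with a kit that does not mark strand. Per the labels, reads were handled with FastQC, STAR, HTSeq and DESeq2 on mm10. Versions and the gene annotation are not given in the sources used here. The deposited values are a signal in which the authors divided the reads of each gene by the library's size factor. Whole reads were recovered for every value within a tolerance of 0.01 reads. Intervals on levels cover the spread between livers.

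The 9 genes and the 7 lists of related genes were chosen with earlier results of these data known. Of the 17460 genes, the 17297 that reached a value of 1 in 3 livers or more were tested on log2(value + 1) with limma 3.58.1 in R 4.3.3, with a mean-variance trend and without a replicate block. edgeR 4.0.16 and DESeq2 1.42.0 were run on the recovered reads. Other alternatives were a pseudocount of 0.1, no filter, at least 10 reads in every liver, voom, edgeR without TMM, a replicate block and each liver left out. The fits across genes were tested on simulated data in which the planted changes were far larger than the differences of the 9 genes. That test therefore does not show how well differences of this size are found. Ratios within livers used exact permutation tests (scipy 1.17.1), adjusted over 4.

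Named were the 9 genes, from each list the 2 genes with the smallest p among those with a mean of at least 10 and the highest gene, always Srebf1, Ppara, Nr1h3, Scd1 and Elovl6, and for each of the 9 with a mean of at least 1000 the 3 genes of nearest profile. Of the genes this rule gives, 2 are not reported here. Coordinates and exon lengths are from GENCODE M21 and promoter sequences from RefSeq, both on GRCm38, the build also called mm10. The marker lists for hepatocytes, macrophages, stellate cells and fibroblasts, endothelial cells, cholangiocytes and lymphocytes were summed per liver.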

Additional observations from a re-analysis of the deposited data

How the results depend on the processing

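None of the 9 genes passed adjustment under any alternative. With 3 livers a group, the limma interval of Elovl2 ran from −0.23 to 0.20, and these bounds are not a limit of detection. Larger log2 fold changes also did not pass adjustment in limma, such as −0.40 for Elovl7 and −0.42 for Srebf1. The least covered of the 9 genes, Elovl7, had no fewer than 305 reads in any liver. Over all genes, the count past adjustment was 1, and 2 without the filter, 2 with edgeR and TMM, 84 with DESeq2, and 0 to 13 with 1 liver left out, the 13 without Blnc1 LKO replicate 2 (0 without control replicate 1, 3 without control replicate 2, 2 without Blnc1 LKO replicate 1). The cause was not tested. With the replicate number as a block the count was 0. In that fit 2 of the 9 genes (Fads2 and Elovl7) and 5.27% of all genes had an unadjusted p under 0.05. Livers with the same number did not deviate together (correlations of −0.058, −0.019 and −0.107), so the numbers were not taken to pair the samples.

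The count of the 9 at an unadjusted p under 0.05, 3 in the main comparison, ran from 0 to 4 with 1 liver left out: 0 without control replicate 1, 1 without Blnc1 LKO replicate 1 or 3, and 4 without Blnc1 LKO replicate 2. The share of all genes with such a p moved as well, from 5.68% in the main comparison to 3.84% without control replicate 1, 5.68% and 5.54% without Blnc1 LKO replicates 1 and 3, and 10.7% without Blnc1 LKO replicate 2. Which of the 9 had such a p changed too. Without control replicate 2 they were Elovl7 and Scd2, beside 4.57% of all genes. With edgeR on library sizes alone they were Fads1, Fads2 and Elovl5, beside 5.05% of all genes. Of the related genes, 5 had such a p, 3 to 8 with 1 liver left out (3 without control replicate 1, 8 without Blnc1 LKO replicate 2) and 8 with edgeR on library sizes alone. DESeq2 called 1 of them, Srebf1 (log2 fold change −0.42). Values near 0 changed sign: Fads6 was at −0.0025 with edgeR on library sizes alone and between −0.039 and 0.032 with 1 liver left out, Elovl1 between −0.083 and 0.054, Elovl2 between −0.094 and 0.073, and Hsd17b12 between −0.026 and 0.065. The log2 ratio differences lay between −0.091 and 0.014 for Fads2 over Fads1, −0.056 and 0.19 for Scd2 over Scd1, and −0.090 and 0.25 for Elovl5 over Elovl6. The log2 fold changes of Fads1, Fads2, Fads3, Elovl5, Elovl7 and Scd2 kept their sign under every alternative. Of the 22 related genes the naming rule gives, the value of 16 moved by over 1.5 times when some liver was left out, as Elovl6 did (−0.43 to −0.044).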

Other observations

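Of the 11 protein-coding genes within 150000 bases of the Fads cluster on chromosome 19, all listed, Tmem258, which lies beyond Fads1 and encodes a subunit of the oligosaccharyltransferase complex, differed in the other direction from its neighbours Fads1 and Fads2. Its normalized values were 2057, 2005 and 1857 in control and 2330, 2296 and 2476 in Blnc1 LKO livers. The first bases of Tmem258 overlap Fen1 on the other strand, where unstranded reads cannot be assigned. All Blnc1 LKO livers were above the controls, with a log2 fold change of 0.26 (SE 0.063, 95% interval 0.12 to 0.41, limma adjusted p = 0.555). Fth1, the ferritin heavy chain gene on the other side of the cluster, was below the controls in all Blnc1 LKO livers (146686 ± 2129 against 138603 ± 1750, n = 3 each, log2 fold change −0.082, limma adjusted p = 0.973). The livers overlapped between groups for Fads3 and the other 6 genes, Incenp, Best1, Rab3il1, Fen1, Myrf and Dagla. Tmem258 and Fth1 were chosen for mention after their values were seen.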
